A study of Mus musculus with 12 samples.

Results

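Several serpins of clade A are proteins that hepatocytes make and release into blood. The 10 members described here are Serpina1a, Serpina1b, Serpina1c, Serpina1d and Serpina1e, Serpina3k, Serpina3m and Serpina3n, and the hormone carriers Serpina6 and Serpina7. They were chosen by gene symbol, with values of these same libraries known. The levels, fold changes and calls given for them are therefore descriptions, and no p-value is printed for them. Their calls rest on an adjusted p over all genes tested and are not independent evidence. The 10 genes were among 24 genes with a Serpina symbol and 21911 Ensembl genes in all. The symbols matched 11 table rows, because an additional assembled locus carried the symbol Serpina1a, and that locus is described apart from the gene. RNA sequencing was performed on 12 libraries of primary hepatocytes isolated from male C57BL/6J mice aged 6 weeks, with 3 libraries in each of 4 groups. Untreated hepatocytes formed the Con group. Hepatocytes exposed to oleic acid (OA, 0.2 mM, bound to albumin) formed ConOA, hepatocytes exposed to benzbromarone (BBR, 15 µM) formed BBR, and hepatocytes exposed to both at the same concentrations formed BBROA, each for 16 h. BBR is a uric acid-lowering drug used in gout, and OA is a common monounsaturated fatty acid that fills cultured hepatocytes with triglyceride. The labels name the tissue as liver and the design text of the series calls the OA groups a high-fat diet, whereas the methods of the study describe OA added to cultured hepatocytes. The design text speaks of biological replicates, but the labels do not say whether the 3 libraries of a group came from separate mice, so the spread between them may be technical.

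Inhibitory serpins work as suicide substrates: a protease cuts an exposed loop near the end of the serpin chain, the serpin snaps into a different fold, and the protease stays trapped. Serpina1 encodes alpha-1-antitrypsin, the main plasma inhibitor of neutrophil elastase, and the mouse carries several near-identical copies of this gene where the human genome has SERPINA1 only. The mouse Serpina3 genes are likewise an expanded set of relatives of human alpha-1-antichymotrypsin, and Serpina3n is known as an acute phase gene. Serpina6, corticosteroid-binding globulin, and Serpina7, thyroxine-binding globulin, have the serpin fold but carry hormones in blood instead of inhibiting proteases.

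Library totals ran from 15485508 to 23668379 counts, so that 3 counts, taken as the lowest level that could be read, corresponded to 0.127 to 0.194 CPM (counts scaled to a common library size). The 10 members took between 1.05% and 1.25% of all counts in a library. Of the 8 hepatocyte markers listed, 7 were analysed here, and their sum was mostly Alb. It lay between 32620 and 35227 CPM in the libraries without OA and between 38451 and 41829 CPM in those with it. Of these 7 genes, 1 rose and 4 fell with BBR (27.7% of all genes called, list median -0.20). With OA 5 of them rose and 0 fell (42.8%, median 0.20). The 5 neutrophil markers summed to at most 0.253 CPM. The Kupffer cell list (10 genes, mostly Cd68) summed to between 136 and 179 CPM in BBR and to between 95.5 and 115 CPM in the other groups. Cd68 itself had a mean of 80.1 CPM in Con and 131 CPM in BBR. With BBR 1 of the 9 tested genes of the list rose and 1 fell, where 27.7% of all genes were called. With OA, 2 of its 9 tested genes rose (Marco by 2.51 and Adgre1 by 1.41 on the log2 scale) and 6 fell (Clec4f, Cd5l, Vsig4, C1qa, C1qb and C1qc, by 0.47 to 1.28), where 42.8% of all genes were called. The cholangiocyte list (5 genes, mostly Spp1) summed to between 590.0 and 722 CPM in Con, 391 and 422 CPM in BBR, 242 and 272 CPM in ConOA and 199 and 240.2 CPM in BBROA, with Krt7 at 0 in all Con libraries. That sum follows Spp1, which fell with BBR, while the 3 other tested genes of the list, Sox9, Krt19 and Epcam, rose with BBR, where 27.7% of all genes were called. The part of these marker shifts in the values below was not tested. In these bulk libraries fewer cells of a type and less RNA per cell cannot be told apart. Levels below are CPM scaled with TMM factors over the 12 libraries, as mean ± SD with n = 3. Fold changes are log2 values from edgeR quasi-likelihood fits to the 6 libraries compared. Their standard error (SE) was computed as the absolute log2 change divided by the square root of the F statistic of the test. A gene is said to rise or fall where its adjusted p over all genes tested was under 0.05.

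**Figure D1:**
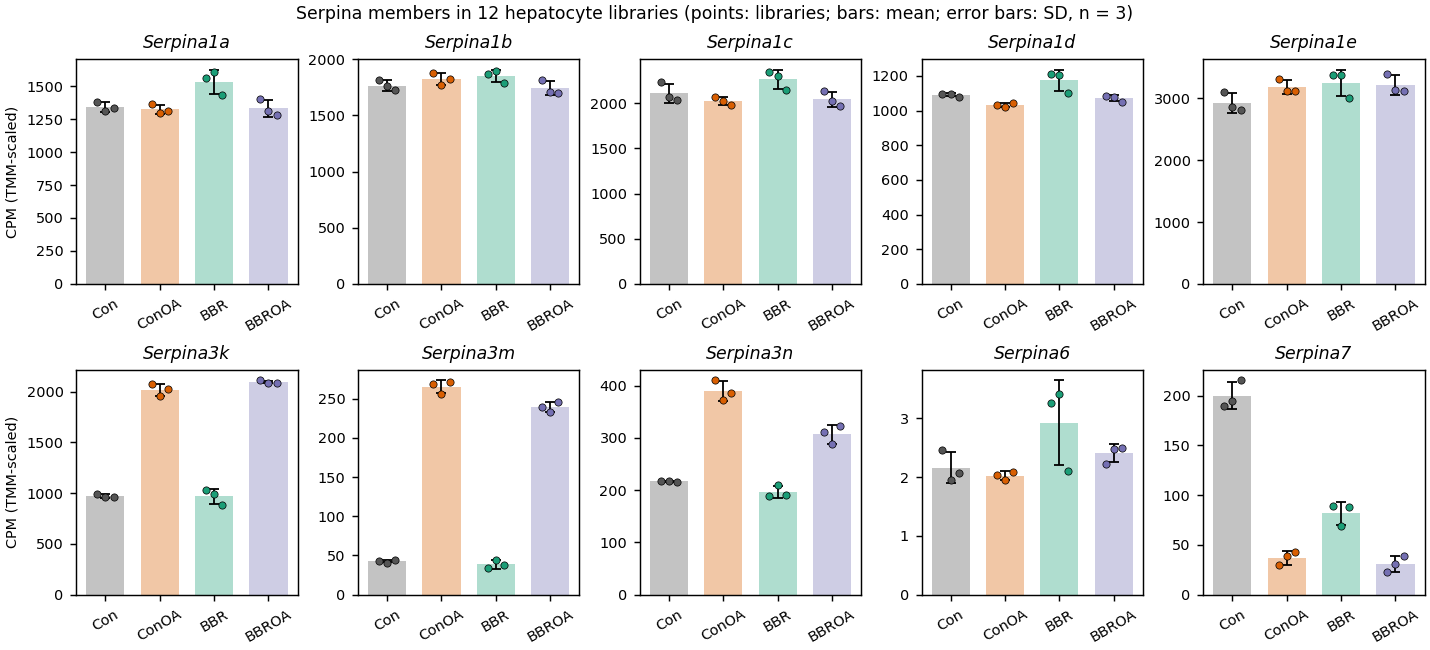
CPM of each member in every library, with 1 panel per gene, points for single libraries, bars for the mean and error bars for the SD (n = 3). The vertical axes start at 0 and differ between panels. Serpina3k, Serpina3m and Serpina3n stood higher in both groups with OA, Serpina7 was highest in Con, and the 5 Serpina1 genes lay at similar levels in all 4 groups.

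Serpina7 lies on chromosome X (chrX:139079257-139085236, minus strand, GRCm38), whereas the 9 other members lie on chromosome 12. It had the widest range of the 10 in relation to its level. It measured 189.7, 195 and 215 CPM in Con, 29.2, 38.8 and 43.1 CPM in ConOA, 89.3, 68.7 and 87.7 CPM in BBR, and 22.7, 30.3 and 38.3 CPM in BBROA. All Con libraries were thus above all BBR libraries, and all BBR libraries were above every library with OA, while ConOA and BBROA overlapped. The means were 200.0 ± 13.6 CPM in Con, 37.0 ± 7.09 in ConOA, 81.9 ± 11.5 in BBR and 30.4 ± 7.82 in BBROA. Serpina7 fell 5.36-fold with OA (log2 change -2.42, SE 0.10) and 2.42-fold with BBR (-1.28, SE 0.08). In hepatocytes already exposed to BBR it fell 2.72-fold with OA (-1.44, SE 0.14). Among OA-exposed hepatocytes the change with BBR was -0.30 (SE 0.15), which did not pass the threshold, and it was -0.29 and did pass once the replicate number was fitted as a block. The BBR effect on Serpina7 was less negative with OA than without it, by 0.99 on the log2 scale (SE 0.20) in the interaction fit over all 12 libraries, and Serpina7 was the single member called there, where 12.2% of all genes tested were called, 6.87% higher and 5.31% lower. With the replicate block 4 members were called in the interaction (Serpina1a at -0.19, Serpina1b at -0.13 and Serpina3n at -0.19 beside Serpina7), and with DESeq2 2 (Serpina1a and Serpina7). Spp1, which makes up most of the cholangiocyte list, fell beside Serpina7 with OA (-1.58, SE 0.08, adjusted p = 2.8e-09, edgeR) and with BBR (-0.83, SE 0.07, adjusted p = 1.5e-07, edgeR). The other tested genes of that list moved the opposite way with BBR, with Sox9 higher by 0.61, Krt19 by 0.68 and Epcam by 0.92, and with OA Sox9 rose by 0.60 and Krt19 and Epcam were not called (0.23 and -0.22).

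The 250 bases upstream of the Serpina7 start in RefSeq (chrX:139085237-139085486, GRCm38, minus strand) are shown because this gene fell most. Capitals mark TATAAA, the letters of a TATA box, a core promoter element that helps to place the start of transcription. It began 10 bases before the start and 27 bases before a second start that RefSeq lists for Serpina7.
Serpina7: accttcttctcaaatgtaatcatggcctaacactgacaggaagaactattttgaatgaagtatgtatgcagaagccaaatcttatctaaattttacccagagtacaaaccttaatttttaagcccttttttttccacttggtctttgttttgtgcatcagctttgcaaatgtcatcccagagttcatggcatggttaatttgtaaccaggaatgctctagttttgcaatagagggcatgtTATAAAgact
TATAAA was searched on both strands, and 13.0% of the 27025 promoters of this length in the table held it. Of the 10 members, 7 had a promoter entry, and 1 of those 7, Serpina7, held it.

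**Figure D2:**
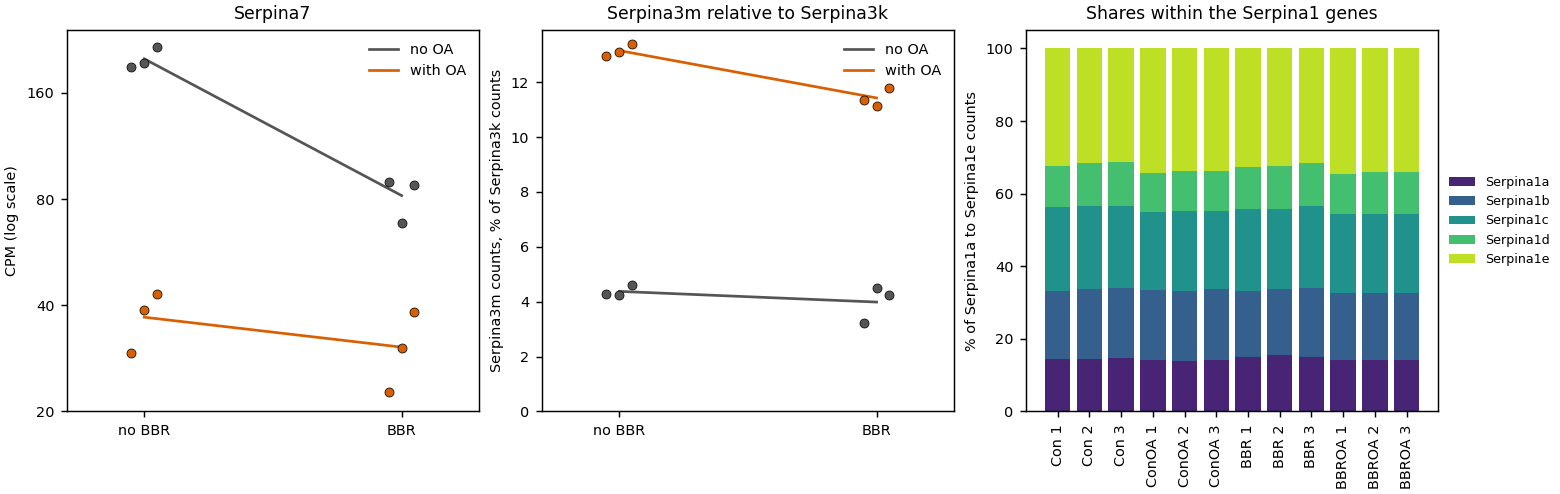
Left: Serpina7 in CPM on a log axis, without and with BBR, in grey for libraries without OA and in orange for libraries with OA. Middle: Serpina3m counts as a percent of Serpina3k counts in the same libraries. Right: the share of each Serpina1 gene in the summed Serpina1a to Serpina1e counts of every library. Points are libraries and lines join group means. Serpina7 dropped from 200.0 to 81.9 CPM with BBR alone, the Serpina3m percent stood near 4 without OA and above 11 with it, and the Serpina1 shares moved by less than 3 percentage points between group means.

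The Serpina3 members rose with OA. They lie in a cluster on the plus strand of chromosome 12, Serpina3k at chr12:104338486-104346144, Serpina3m at chr12:104338486-104394257 and Serpina3n at chr12:104406729-104414329 (GRCm38, GENCODE M21). The annotated span of Serpina3m starts at the same base as that of Serpina3k and covers it. Serpina3m measured 42.6, 40.9 and 44.2 CPM in Con and 33.2, 44.3 and 37.6 CPM in BBR, against 269, 256 and 271 CPM in ConOA and 240.0, 233 and 246 CPM in BBROA. The lowest library with OA was thus more than 5 times as high as the highest library without it. Serpina3m rose 6.26-fold with OA (log2 change 2.65, SE 0.05), which ranked 34 among the 12418 genes tested by size of increase, and 6.28-fold with OA in the presence of BBR (2.65, SE 0.07). Its change with BBR was -0.15 (SE 0.08) without OA and -0.15 (SE 0.05) with OA, and neither passed the threshold, although with OA the groups did not overlap and with the replicate number as a block the gene was called.

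Serpina3k, a kallikrein-binding serpin, measured 992, 965 and 962 CPM in Con and 1029, 988 and 884 CPM in BBR. In ConOA it measured 2074, 1954 and 2024 CPM, and in BBROA 2112, 2090.4 and 2087 CPM. All libraries with OA were above all those without it. The rise with OA was 2.08-fold (1.06, SE 0.05), or 2.17-fold in the presence of BBR (1.12, SE 0.05). With BBR its values were -0.00 (SE 0.06) without OA and 0.05 (SE 0.05) with OA, and neither was called. Serpina3m counts were 4.38% ± 0.193 of Serpina3k counts in Con and 3.99% ± 0.666 in BBR, and 13.2% ± 0.212 in ConOA and 11.4% ± 0.318 in BBROA. The percent of every library with OA was above that of every library without it.

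Serpina3n rose with OA and fell with BBR. It measured 217, 218 and 216 CPM in Con, 409.9, 373 and 385 CPM in ConOA, 188, 210.0 and 190.3 CPM in BBR, and 312, 287 and 322 CPM in BBROA. Every OA library was above every library without OA, and within each of these sets the BBR libraries were the lower ones with no overlap. Serpina3n rose 1.80-fold with OA (0.85, SE 0.05) and 1.57-fold with OA in the presence of BBR (0.65, SE 0.05). It fell with BBR by 0.35 on the log2 scale in OA-exposed hepatocytes (SE 0.05). Without OA the fall was 0.14 (SE 0.05), and this call was lost when any Con library, BBR replicate 1 or BBR replicate 3 was left out, with changes between -0.14 and -0.11 in those fits. The sum of all Serpina3 genes, dominated by Serpina3k, rose with OA by 1.11 (SE 0.05) and by 1.13 with BBR present (SE 0.05).

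Serpina3k and Serpina3m resemble each other closely enough for reads to be shared. Serpina3n shared windows of 50 bases with Serpina3m, but none of 100 bases with either. The coding sequences were 91.0% identical between Serpina3k and Serpina3m, 85.2% between Serpina3m and Serpina3n and 82.7% between Serpina3k and Serpina3n. Of all windows of 100 bases along the coding sequence, 91.8% of those of Serpina3k and 91.8% of those of Serpina3m occurred in no transcript of another gene, and 99.7% of those of Serpina3n. The deposited counts of Serpina3k and Serpina3m had decimals in all 12 libraries and those of Serpina3n were whole. The 90 bases in which the 3 coding sequences differ most show how they can be told apart. They lie in exon 5, at chr12:104345327-104345416 in Serpina3k, chr12:104393833-104393922 in Serpina3m and chr12:104413512-104413601 in Serpina3n, and capitals mark the 33 positions at which the 3 are not all the same.
Serpina3k: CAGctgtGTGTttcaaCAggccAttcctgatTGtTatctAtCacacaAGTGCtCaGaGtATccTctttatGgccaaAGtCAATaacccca
Serpina3m: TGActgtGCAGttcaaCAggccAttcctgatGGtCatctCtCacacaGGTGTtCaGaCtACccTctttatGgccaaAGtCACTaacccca
Serpina3n: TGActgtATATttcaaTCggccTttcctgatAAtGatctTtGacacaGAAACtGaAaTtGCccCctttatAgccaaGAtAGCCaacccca
Over the whole alignment 19.5% of 1248 ungapped positions differed, against 36.7% in this window.

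A promoter entry was found for Serpina3n alone among the Serpina3 members. Its 250 upstream bases (chr12:104406458-104406707, GRCm38, plus strand) are shown because Serpina3n fell with BBR both without and with OA. Capitals mark the reverse complement of TGTTCT, a core motif of the glucocorticoid receptor, 183 bases before the start.
Serpina3n: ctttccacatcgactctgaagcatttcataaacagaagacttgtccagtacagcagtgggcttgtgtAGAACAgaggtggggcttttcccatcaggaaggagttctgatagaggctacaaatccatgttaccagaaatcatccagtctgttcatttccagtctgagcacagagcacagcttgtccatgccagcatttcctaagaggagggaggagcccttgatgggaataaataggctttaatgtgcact
TGTTCT was present on either strand in 16.2% of all promoters of this length and in 6 of the 7 member promoters. Besides Serpina3n these were Serpina1a to Serpina1e, near-identical copies that share upstream sequence and held TGTTCT on the strand of the gene. The Serpina1 promoters among them are therefore not independent of each other. Whether TGTTCT is more frequent among members than among all promoters was not tested. CAAAGTCCA (HNF4), TTGCGNAA (C/EBP), TTCNNNGAA (STAT), the PPAR direct repeat and TGATGNAAT (amino acid response) were found on neither strand of any of the 7, and 0.381%, 0.67%, 7.18%, 0.037% and 0.825% of all promoters held them, in that order.

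The 5 Serpina1 genes were the most abundant members by FPKM, on average over the 12 libraries. By total counts Serpina3k (345611) stood above Serpina1a (319713) and Serpina1d (253182). The log2 changes of the 5 Serpina1 genes were at most 0.21 in size in the 4 comparisons. Per length, as the deposited FPKM averaged over the 12 libraries, Serpina1e stood at 2419, Serpina1c at 1550.4, Serpina1b at 1290.4, Serpina1a at 1017 and Serpina1d at 784 FPKM, and this order among the 5 held in all 4 groups. With OA, Serpina3k lay among them, at 972 FPKM in ConOA against 965 for Serpina1a and 735 for Serpina1d, and at 1011 FPKM in BBROA against 971 and 762. Serpina1e measured 3111, 2859 and 2807 CPM in Con, 3312, 3116 and 3128 CPM in ConOA, 3375, 3372 and 3004 CPM in BBR, and 3404, 3142 and 3115 CPM in BBROA. The lowest ConOA and BBROA libraries were just above the highest Con library, and BBR overlapped with Con. Serpina1e was called in none of the 4 comparisons, with log2 changes of 0.16 with BBR (SE 0.06) and 0.13 with OA (SE 0.06). With the replicate number as a block both of these were called, at 0.16 and 0.13.

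Serpina1a measured 1379.9, 1308 and 1335 CPM in Con, 1364, 1295 and 1309 CPM in ConOA, 1564, 1605 and 1432 CPM in BBR, and 1403, 1309 and 1279.6 CPM in BBROA. The BBR libraries were the 3 highest of the 12. Serpina1a rose with BBR by 0.20 on the log2 scale (SE 0.05) and fell with OA in the presence of BBR by 0.21 (SE 0.05). The rise with BBR was no longer called without Con replicate 2 (0.18) or without BBR replicate 2 (0.17). Its changes were -0.01 (SE 0.05) with OA alone and 0.01 (SE 0.05) with BBR on top of OA, and neither was called.

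Serpina1b lay between 1704 and 1895 CPM in all 12 libraries, with group means of 1767 ± 44.7 in Con, 1826 ± 50.5 in ConOA, 1853 ± 54.1 in BBR and 1745 ± 63.2 in BBROA, and was called in no comparison. Serpina1c had means of 2111 ± 105 CPM in Con, 2025 ± 41.1 in ConOA, 2263 ± 106 in BBR and 2041 ± 82.4 in BBROA. Serpina1d had means of 1092 ± 9.53 CPM in Con, 1033 ± 10.4 in ConOA, 1174 ± 61.2 in BBR and 1071 ± 18.0 in BBROA. Both fell with OA in the presence of BBR, Serpina1c by 0.15 (SE 0.05) and Serpina1d by 0.13 (SE 0.05). The calls of these small falls depended on the libraries kept, while the size of the falls moved little. The Serpina1c call was lost in 4 of 6 fits that left out a library and the Serpina1d call in 5 of 6. In the fits that lost the call the falls lay between 0.12 and 0.14 and between 0.11 and 0.14. With OA alone Serpina1d changed by -0.07 (SE 0.05), without overlap between the groups, and was called with the replicate number as a block only.

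Reads shared by the 5 genes may be split between them in more than 1 way, so their sum was taken too. Serpina1a to Serpina1e summed to 9236 ± 348 CPM in Con, 9393 ± 227 in ConOA, 10074 ± 519 in BBR and 9407 ± 380.2 in BBROA. Fitted with the assembled locus and Serpina1f, which had no counts, included, the sum changed by 0.13 (SE 0.06) with BBR, 0.03 (SE 0.05) with OA, -0.00 (SE 0.05) with BBR on top of OA and -0.10 (SE 0.05) with OA on top of BBR, and it was called in none of these. Within the sum, Serpina1e took 31.7% ± 0.556 in Con, 33.9% ± 0.352 in ConOA, 32.2% ± 0.476 in BBR and 34.2% ± 0.345 in BBROA. Serpina1c took 22.8% ± 0.273, 21.6% ± 0.327, 22.5% ± 0.290 and 21.7% ± 0.110 in the same order. The Serpina1e share of every OA library exceeded that of every library without OA, and the Serpina1c share of every OA library was lower.

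All 5 are encoded on the minus strand of chromosome 12, Serpina1b at chr12:103728156-103830373, Serpina1d inside that span at chr12:103763594-103773592, Serpina1a at chr12:103853589-103863562, Serpina1c at chr12:103894926-103904887 and Serpina1e at chr12:103946931-103958975. Their coding sequences were between 91.4% and 96.7% identical in pairs, where the lower values belong to Serpina1a, whose longest annotated coding sequence has additional bases at its start. Windows of 100 bases that no other gene's transcripts hold made up 39.0% of the coding sequence of Serpina1a, 70.0% of Serpina1b, 38.2% of Serpina1c, 66.7% of Serpina1d and 80.9% of Serpina1e. All 5 had counts with decimals. Only 86 of 1239 ungapped positions, or 6.9%, differed among the 5, and in the 90 bases shown here 20 positions, or 22.2%, did. The window lies in the last exon, near the end of the coding sequence, where serpins encode the loop that the protease cuts, and capitals mark the positions at which the 5 are not all the same. Its coordinates on the minus strand are chr12:103853725-103853814 for Serpina1a, chr12:103728292-103728381 for Serpina1b, chr12:103895062-103895151 for Serpina1c, chr12:103763730-103763819 for Serpina1d and chr12:103947068-103947157 for Serpina1e.
Serpina1a: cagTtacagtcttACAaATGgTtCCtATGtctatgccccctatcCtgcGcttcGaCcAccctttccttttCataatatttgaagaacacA
Serpina1b: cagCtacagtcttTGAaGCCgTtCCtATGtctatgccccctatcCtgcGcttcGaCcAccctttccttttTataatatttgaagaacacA
Serpina1c: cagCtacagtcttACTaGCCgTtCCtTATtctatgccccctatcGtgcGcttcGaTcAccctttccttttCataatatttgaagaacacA
Serpina1d: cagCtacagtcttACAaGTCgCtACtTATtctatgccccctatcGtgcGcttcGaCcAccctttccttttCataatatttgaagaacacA
Serpina1e: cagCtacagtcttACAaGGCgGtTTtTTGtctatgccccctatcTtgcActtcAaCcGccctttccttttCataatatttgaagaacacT

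The 5 genes also share sequence upstream of the start. The longest run of bases common to all 5 promoters was 55 bases long, and with the 20 bases before it any pair of genes differed at 2 to 7 of 75 positions. The run ended at the RefSeq start in Serpina1d and lay 5 bases from it in Serpina1a, 10 in Serpina1b, 11 in Serpina1c and 62 in Serpina1e. Capitals mark the 10 positions at which the genes differed, at chr12:103863625-103863699 for Serpina1a, chr12:103738200-103738274 for Serpina1b, chr12:103904962-103905036 for Serpina1c, chr12:103773634-103773708 for Serpina1d and chr12:103956960-103957034 for Serpina1e (GRCm38, minus strand).
Serpina1a: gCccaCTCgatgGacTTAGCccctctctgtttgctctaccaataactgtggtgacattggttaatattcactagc
Serpina1b: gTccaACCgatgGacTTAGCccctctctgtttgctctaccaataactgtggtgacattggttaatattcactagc
Serpina1c: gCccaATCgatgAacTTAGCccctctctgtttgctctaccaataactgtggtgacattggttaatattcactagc
Serpina1d: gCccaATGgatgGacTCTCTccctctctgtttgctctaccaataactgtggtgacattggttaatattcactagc
Serpina1e: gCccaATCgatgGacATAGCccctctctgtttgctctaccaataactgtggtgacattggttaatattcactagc
Serpina1d differed most from the others here, at 6 or 7 positions, against 2 or 3 among the remaining 4 genes.

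Serpina6, on chromosome 12 at chr12:103646630-103657212 on the minus strand, was the least abundant member, with 36 to 71 counts per library. It measured 2.46, 1.96 and 2.06 CPM in Con, 2.04, 1.95 and 2.09 CPM in ConOA, 3.27, 3.41 and 2.10 CPM in BBR, and 2.23, 2.48 and 2.50 CPM in BBROA. BBR replicates 1 and 2 were the highest of the 12 libraries, and BBR replicate 3 lay among the Con values. Serpina6 was called in no comparison, with changes of 0.45 (SE 0.22) with BBR, -0.08 (SE 0.20) with OA, 0.24 (SE 0.20) with BBR on top of OA and -0.28 (SE 0.21) with OA on top of BBR. The standard errors were about 4 times those of the abundant members. Without BBR replicate 3 the change with BBR was 0.64 and was called. Per length, Serpina6 stood at 1.36 ± 0.176 FPKM in Con, against 134 ± 10.6 FPKM for Serpina7.

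The order of the members by length-scaled level therefore depended on OA. In Con, Serpina7 (134 ± 10.6 FPKM) stood above Serpina3n (106 ± 1.28) and Serpina3m (26.0 ± 0.95). In ConOA it stood below both, at 25.4 ± 3.86 FPKM against 187 ± 9.44 and 159 ± 4.21. Serpina3k had 479 ± 12.2 FPKM in Con, below all 5 Serpina1 genes, and in ConOA its 972 ± 29.0 FPKM did not differ beyond the spread from the 965 ± 29.7 of Serpina1a. In BBROA the values of Serpina3m (143 ± 4.44) and Serpina3n (148 ± 9.33) overlapped.

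**Figure D3:**
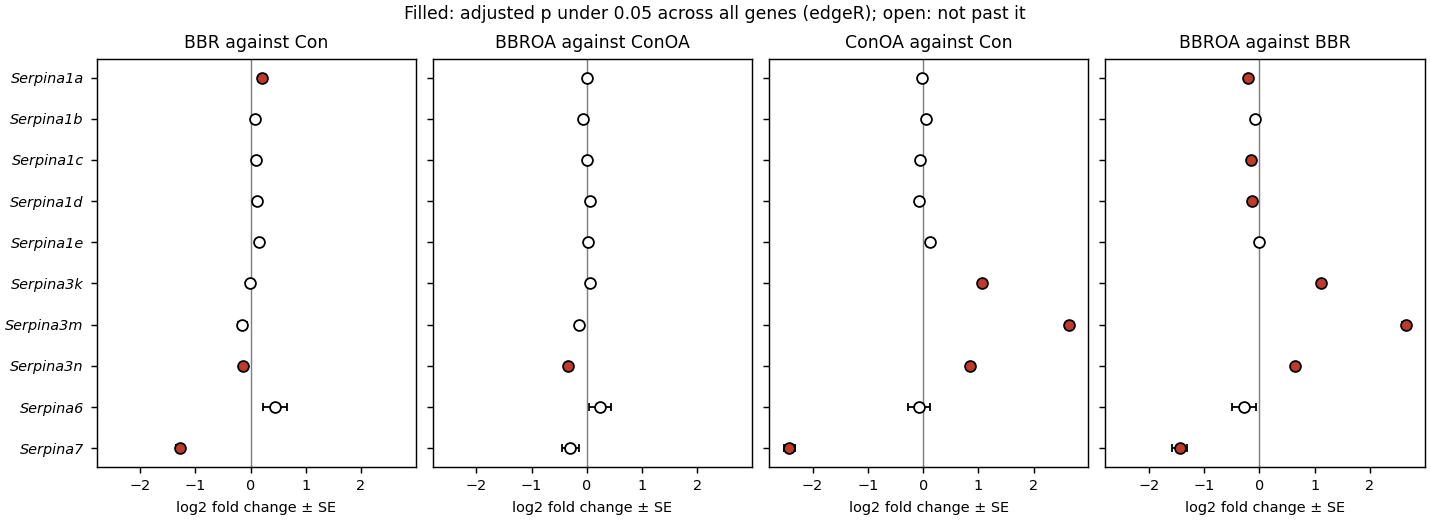
Log2 fold change of each member (vertical axis) with its SE in the 4 comparisons of 2 groups, from edgeR. Filled points passed an adjusted p under 0.05 over all genes tested and open points did not. With OA, Serpina3m lay at 2.65 and Serpina7 at -2.42, while all Serpina1 points lay within 0.21 of 0 in all 4 comparisons.

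Set side by side, the comparisons asked how BBR acted without and with OA, and how OA acted without and with BBR. All 10 members passed the filter on low counts in each. With BBR alone, 1 member rose (Serpina1a) and 2 fell (Serpina3n and Serpina7), where 27.7% of all 12555 genes tested were called, 13.2% higher and 14.5% lower. The groups did not overlap for 4 members, against 41.5% of genes. Without Con replicate 2 the count of called members dropped to 1, Serpina7. With BBR in OA-exposed hepatocytes, 1 member fell (Serpina3n), where 4.59% of 12278 genes were called, 1.95% higher and 2.63% lower. The groups did not overlap for 5 members, against 23.9% of genes. With the replicate number as a block 3 members fell (Serpina3m, Serpina3n and Serpina7). With OA alone, 3 rose and 1 fell, where 42.8% of 12418 genes were called, 21.3% higher and 21.5% lower. The groups did not overlap for 6 members, against 52.2% of genes. With the block 6 were called, now including Serpina1d and Serpina1e. With OA in BBR-exposed hepatocytes, 3 rose (the Serpina3 members) and 4 fell (Serpina1a, Serpina1c, Serpina1d and Serpina7), where 38.9% of 12416 genes were called, 20.1% higher and 18.8% lower. The groups did not overlap for 7 members, against 49.6% of genes. At a change of at least 2-fold beside the call, 3 members remained in each OA comparison (Serpina3k, Serpina3m and Serpina7), where 4.97% and 4.43% of genes did, 1 remained with BBR alone (2.20% of genes) and 0 with BBR on top of OA (0.252%). The median log2 change of the members was 0.09, 0.01, 0.02 and -0.11 in these 4 comparisons in the order given, and that of all genes tested lay between -0.01 and 0 in each. Comparisons that share a group share its libraries, so their values are not independent of each other.

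The assembled locus that carried the Serpina1a symbol had 7 to 97 counts per library. It measured 2.11, 4.63 and 3.12 CPM in Con, 1.75, 2.06 and 1.74 in ConOA, 1.29, 2.25 and 2.80 in BBR, and 0.354, 0.898 and 1.13 in BBROA. Each BBROA library was below every library of the other groups. The locus fell with OA by 0.82 (SE 0.26), with BBR on top of OA by 1.24 (SE 0.33) and with OA on top of BBR by 1.41 (SE 0.38), unlike the Serpina1a gene itself, whose changes in these comparisons lay between -0.21 and 0.01. The files give no annotation that places the locus in relation to the gene.

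The remaining family was mostly silent. Of the 14 other Serpina genes, 2 (Serpina1f and Serpina16) were at 0 in all 12 libraries and 3 reached a mean of 1 CPM in some group. These were Serpina10, the protein Z-dependent protease inhibitor, Serpina11 and Serpina12, known as vaspin, and they are described with Agt, angiotensinogen, a clade A serpin that yields a hormone. All 4 fell both with BBR and with OA. Serpina10 went from 85.4 ± 5.04 CPM in Con to 48.1 ± 3.57 in BBR (-0.82, SE 0.06, adjusted p = 9.6e-08, edgeR) and to 57.9 ± 5.13 in ConOA (-0.55, SE 0.07, adjusted p = 1.4e-05, edgeR). Its BBR effect was less negative with OA, by 0.60 (SE 0.11, adjusted p = 0.00094, edgeR interaction). Serpina12 fell from 32.9 ± 4.42 CPM to 19.0 ± 1.98 with BBR (adjusted p = 1.3e-05, edgeR) and to 16.5 ± 2.62 with OA (adjusted p = 8.0e-06, edgeR). Serpina11 fell by 0.29 with BBR and by 0.41 with OA, and Agt by 0.13 and 0.31. Among the 38 serpins of other clades, 19 were tested with BBR, of which 5 rose and 8 fell (27.7% of all genes called), and 20 were tested with OA, of which 4 rose and 6 fell (42.8%). Serpinf2, the plasmin inhibitor alpha-2-antiplasmin, fell with BBR from 214 ± 13.8 to 112 ± 7.75 CPM (-0.93, SE 0.06, adjusted p = 2.1e-08, edgeR) and rose with OA on top of BBR to 228 ± 11.6 CPM (1.03, SE 0.05, adjusted p = 4.9e-09, edgeR). Serpinc1, antithrombin, lay between 302 and 370.2 CPM in all libraries and fell with OA by 0.13 (SE 0.05, adjusted p = 0.037, edgeR).

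**Figure D4:**
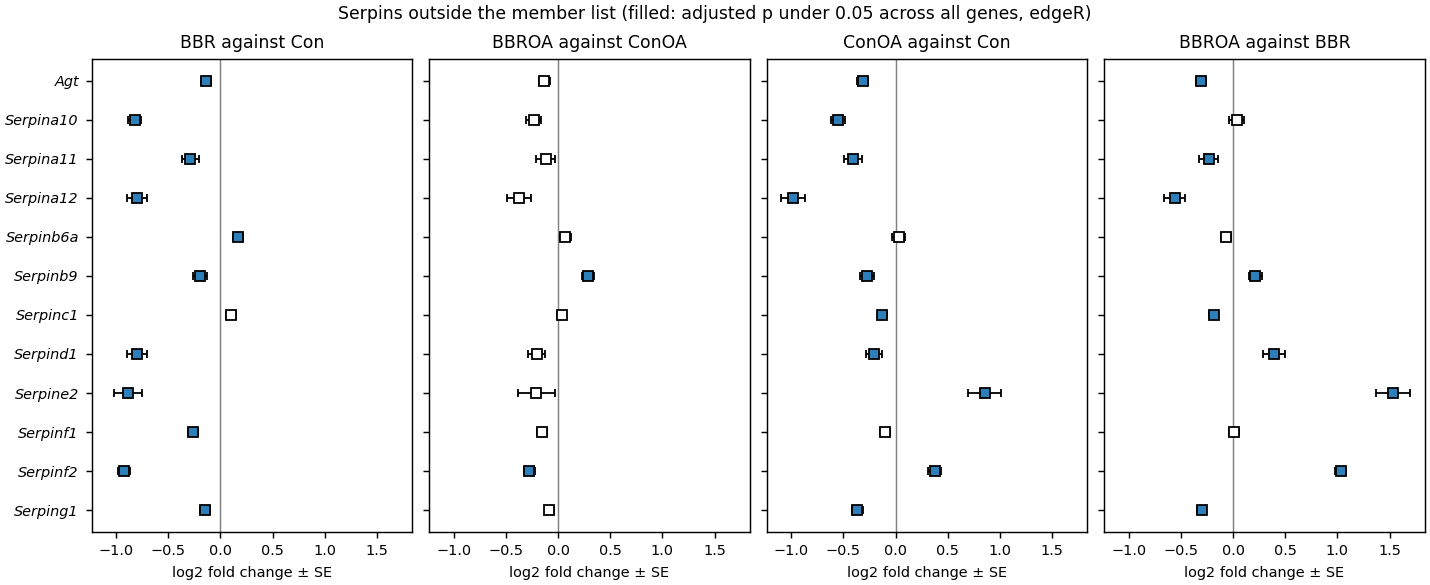
Log2 fold change with SE of 12 serpins outside the member list, in the same 4 comparisons. Filled squares passed an adjusted p under 0.05 over all genes tested. Serpina10, Serpina11, Serpina12 and Agt lay left of 0 with BBR and with OA, and Serpinf2 stood at -0.93 with BBR.

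Genes that handle the hormones carried by Serpina6 and Serpina7 were read from a list of 17. With BBR 2 rose and 8 fell (27.7% of all genes called, list median -0.29), and with OA 5 rose and 4 fell (42.8%, median -0.05). Of the thyroid hormone genes, Thrb, a thyroid hormone receptor, went from 27.1 CPM in Con to 16.7 in BBR (-0.68, SE 0.09, adjusted p = 2.0e-05, edgeR) and 18.1 in ConOA (-0.57, SE 0.07, adjusted p = 1.5e-05, edgeR), and Thra fell with BBR by 0.40 and with OA by 0.90. Of the genes known to respond to glucocorticoids, Tat, Per1 and Fkbp5 rose with OA, by 1.06, 1.15 and 0.67, whereas Tsc22d3 was not called (0.09). The glucocorticoid receptor gene Nr3c1 fell with OA by 0.21. Tat, Fkbp5 and Tsc22d3 fell with BBR, by 0.44, 0.35 and 0.29, and Per1 rose with BBR by 0.61. Ttr, transthyretin, is another plasma carrier of thyroxine made by hepatocytes. It rose with BBR from 949.9 ± 27.3 to 1073 ± 96.9 CPM (0.18, SE 0.06, adjusted p = 0.033, edgeR), where Serpina7 fell. BBR replicate 3 (963 CPM) lay below the highest Con library (974 CPM). With OA, where Serpina7 fell too, Ttr rose by 0.16 (SE 0.05, adjusted p = 0.014, edgeR) without overlap between the groups.

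The genes with a pattern most like that of a member over the 12 libraries were read by Pearson correlation of log2 CPM among 8412 genes with a mean of at least 10 CPM outside the family. Among the 5 closest to Serpina7 were Cat (r = 0.988), Spp1 (0.985), Fam25c (0.981) and Aqp8 (0.980). Among the 5 closest to the Serpina1 sum were Igfbp2 (0.951), Plod3 (0.907), Fabp1 (0.900) and Fnbp4 (0.851). For Serpina6 they were Apoh (0.836), Tmem237 (0.823), Ywhaq (0.799), Mien1 (0.798) and Ccndbp1 (0.791). The 12 points share the 4 groups, the libraries and the scaling, and by Spearman rank correlation 0 of the 5 genes stayed among the first 5 for Serpina7 and Serpina6 and 2 for the Serpina1 sum.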

How the data were processed

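The 12 libraries were poly(A)-selected and sequenced by the authors on an Illumina platform, and their processing notes name the mouse build mm10 (GRCm38); the aligner, the quantifier and the strand setting were not given in the sources used here. Each deposited file held estimated counts (expected counts, with decimals for 2862 of 22471 rows) and FPKM per gene, which per the file headers belonged to 1 library. Counts were rounded to whole numbers. Library totals of 15485508 to 23668379 counts set the precision of each level. The floor of 3 counts covers counting error only, whereas the SDs and standard errors also include the spread between libraries. Each pair of groups was fitted with edgeR 4.0.16 in R 4.3.3 (quasi-likelihood F test, two-sided, TMM, filterByExpr with a minimum count of 10) and calls were made at a Benjamini-Hochberg adjusted p of 0.05 over all genes tested. The interaction was fitted on all 12 libraries. The fit was tested on simulated counts. FPKM, which is per length, served only to rank levels between genes. The 10 members, the gene lists and the motifs were chosen with earlier results of these data known. Genes outside the members were named by rule: other Serpina genes and Agt at a mean of at least 1 CPM in some group, other serpins called at least once with a mean of at least 10 CPM, listed genes called at least once with a log2 change of 0.5 or more, and the 5 genes most like Serpina7, Serpina6 or the Serpina1 sum; some that met the rule are not reported here. Coordinates and coding sequences came from GENCODE M21 (99.71% of Ensembl rows matched) and promoters from RefSeq on GRCm38, aligned with MAFFT 7.526 and Biopython 1.88. No library pair within a group agreed within sampling noise (chi-square per degree of freedom 2.77 to 7.61). Replicate numbers came from the labels. Same-numbered libraries deviated together by more than r = 0.1 in every pair for BBR and Con (0.118 to 0.320), BBROA and ConOA (0.129 to 0.309) and ConOA and Con (0.267 to 0.445), but not for BBROA and BBR (0.044 to 0.318), so blocked values are printed beside the former where a call changed. Alternatives tried were RLE and upper quartile scaling, no filter, DESeq2 1.42.0, a joint fit, the replicate block, leaving out each library, a 2-fold rule, sums of paralogs, raw CPM and FPKM.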

Additional observations from a re-analysis of the deposited data

Results flagged for a closer look

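The effect of BBR on Serpina7 differed between hepatocytes without and with OA in a fit over all 12 libraries, by 0.99 on the log2 scale (SE 0.20). BBR lowered the mean from 200.0 to 81.9 CPM without OA and changed it from 37.0 to 30.4 CPM with OA. The difference passed the threshold in edgeR's quasi-likelihood test over all genes, where 12.2% of genes did, and Serpina7 was the single member of 10 to do so. With the replicate number as a block 4 members passed it, and with DESeq2 2 did, Serpina7 among them in each. Serpina7 was listed with these values known.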

How the results depend on the processing

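Each number here is a count of called members out of 10 unless stated. With BBR alone the count was 3, fell to 1 at an unadjusted p under 0.05 with at least a 2-fold change, and ranged from 1 to 4 when single libraries were left out, with the lowest count without Con replicate 2; the replicate block made it 4. With BBR on top of OA it was 1, became 3 with the replicate block and 0 under the 2-fold rule, and stayed at 1 in all leave-out fits. With OA alone it was 4, became 6 with the replicate block and 3 under the 2-fold rule, with 4 to 5 in leave-out fits. With OA on top of BBR it was 7, became 3 under the 2-fold rule and ranged from 5 to 7. For the interaction it was 1, became 2 with DESeq2 and 4 with the replicate block, and ranged from 1 to 2 in leave-out fits, with 2 without BBR replicate 3 and without BBROA replicate 1. The cause was not tested. Beside the blocked calls of Serpina1d, Serpina1e, Serpina3m and Serpina7 given above, the replicate block added Serpina1a (-0.19), Serpina1b (-0.13) and Serpina3n (-0.19) to the interaction and changed no other call but that of Serpina1b, which was called with OA on top of BBR (-0.09), as it was with upper quartile scaling (-0.13). Single-member values under the alternatives kept their call or lack of one in 613 instances, gained a call in 21 and lost it in 16. No value called in either fit changed direction. Values called in neither fit were counted as kept even where their sign changed. Levels on raw totals or as FPKM moved the ratio of group means by more than the spread for Serpina1c, Serpina1d and Serpina3k only. Depth limited Serpina6 most. The libraries cannot separate reads shared by near-identical genes, and whether replicates were separate mice was not stated.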

Other observations

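Genes of the route by which alpha-1-antitrypsin leaves the endoplasmic reticulum were read from a list of 18. With BBR 0 rose and 1 fell (Mcfd2, a partner of the cargo receptor Lman1, by 0.31, SE 0.06, adjusted p = 0.0011, edgeR), with a list median of -0.04 where 27.7% of all genes were called. With OA 1 rose and 8 fell, with a median of -0.10 where 42.8% were called. Pdia4, a protein disulfide isomerase, fell with OA from 158 to 117 CPM (-0.43, SE 0.05, adjusted p = 2.6e-05, edgeR) and with OA on top of BBR from 151 to 107 CPM (-0.51, SE 0.05, adjusted p = 3.3e-06, edgeR). Surf4, another cargo receptor, rose by 0.21 and 0.23 in the same comparisons.

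Of 18 regulators of hepatocyte genes, 0 rose and 10 fell with BBR (27.7% of all genes called, 14.5% lower, list median -0.28), and with OA 4 rose and 7 fell (42.8% called, median -0.12). Cebpa fell from 83.5 ± 3.89 to 58.5 ± 5.67 CPM with BBR (-0.50, SE 0.06, adjusted p = 2.0e-05, edgeR) and to 61.1 ± 4.42 CPM with OA (-0.44, SE 0.06, adjusted p = 4.8e-05, edgeR). Cebpd and Il6ra, both tied to the acute phase response, rose with OA by 0.64 and 0.59, in the comparison in which Serpina3n rose, while Stat3 (-0.12) and Cebpb (0.11), tied to the same response, were not called. Nr1i2, the pregnane X receptor, fell by 0.71 with BBR and by 0.75 with OA, and Onecut1 by 0.67 and 0.76. In the interaction fit 7 of the 18 were higher and 0 lower, where 12.2% of all genes were called.

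The deposited FPKM and counts of Serpina7 imply a transcript length that differs between libraries, from 1332 bases in ConOA replicate 2 to 1665 bases in BBROA replicate 1, a ratio of 1.25. For the 9 other members this ratio was at most 1.007. GENCODE M21 lists 3 transcripts of Serpina7, of 2330, 1895 and 379 bases. In ConOA, replicate 3 was highest by count (43.1 CPM) and replicate 2 by FPKM (29.0).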
